A study of Mus musculus with 15 samples.

Results

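The comparison was between the livers of 3 mice given estradiol (E2) and 3 mice given bazedoxifene (BZA), which are 6 of the 15 mice in the series, and it covered every gene of the deposited expression table. All were female C57BL/6 mice (C57BL/6J in the study's methods) from the Jackson Laboratory that began a high-fat diet at 8 weeks of age and were ovariectomized at 10 weeks. Treatment lasted 6 weeks. The study's methods list 5 µg per kg per day for E2 and 3 mg per kg per day for BZA. They also state that E2 was delivered from slow-release pellets, for which they give a content and a release time. The amount these released per kg is not given, so the listed 5 µg may not be the amount the E2 mice received. The 3 vehicle mice (Veh), also ovariectomized and on the high-fat diet, are given for context only. The agents differed in dose and delivery, and each was sampled at 1 dose and 1 time. Mice are named by their group and the number in their description, which gives E2 mice 3, 4 and 5, BZA mice 1, 3 and 4, and Veh mice 1, 4 and 7.

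E2 is the main circulating estrogen of cycling females and activates the estrogen receptors, of which hepatocytes mainly carry estrogen receptor alpha. BZA is a selective estrogen receptor modulator, a ligand that occupies the same receptors and acts as an agonist or an antagonist depending on the tissue. Many genes of the mouse liver are female- or male-predominant, and much of that pattern is set by the sex-specific rhythm of growth hormone secretion, which acts through the transcription factor STAT5b, with estrogens acting on the liver and on the pituitary.

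RNA was sequenced, and each value in the table is the log2 level of a gene in a single mouse set against the gene's own median across the 15 mice. A value of 0 is therefore the middle mouse, and levels cannot be compared between genes. The table held 2545 genes. All 2545 had a treatment mean more than 2-fold from the Veh mean, in 1587 through E2 or BZA and in the other 958 through conjugated estrogens (CE) or CE with BZA (CE+BZA), so the table is a selection of genes and not the whole transcriptome. In 1045 genes (41.1%), 2 or more of the 15 mice shared the gene's minimum, a floor below which levels were not resolved. The reads per mouse are not in the table, so the depth behind each value is unknown. Since whole liver was sequenced, fewer cells of a type and less RNA per cell cannot be told apart. Of 20 hepatocyte markers 6 were in the table, with differences between E2 and BZA of -0.77 to 0.30 on the log2 scale.

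The livers of BZA mice 1 and 3 stood apart. Of 39 pancreatic acinar markers, which include digestive enzymes such as amylase and chymotrypsinogen, 28 were in the table, and in BZA mouse 3 the level was above 2 in all but Erp27 (1.39) and the highest of all 15 mice in all but Reg1 (4.16). In BZA mouse 1 only Ctrb1 (4.64) and Reg1 (5.41) exceeded 2, and in BZA mouse 4 the highest acinar marker was at 0.91. The summed acinar level, on the log2 scale, was 10.9 in BZA mouse 3, 6.59 in BZA mouse 1 and 4.88 in BZA mouse 4, against 4.82 to 5.06 in the E2 mice. BZA mouse 3 also had the adipocyte markers Adipoq at 5.52 and Plin1 at 5.11, with 7 of 10 adipocyte markers above 2. BZA mouse 1 had the epithelial markers Krt19 at 2.99 and Muc1 at 3.80, with 6 of 16 epithelial markers above 2 and 8 of 16 at the highest level of all mice. BZA mouse 4 had neither pattern, with 0 of the 28 acinar, 0 of the 10 adipocyte and 0 of the 16 epithelial markers above 2. Genes are therefore described by whether they held in all 3 BZA mice, and the value against BZA mouse 4 alone is given where it matters. None of 10 pancreatic islet markers was in the table.

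**Figure D1:**
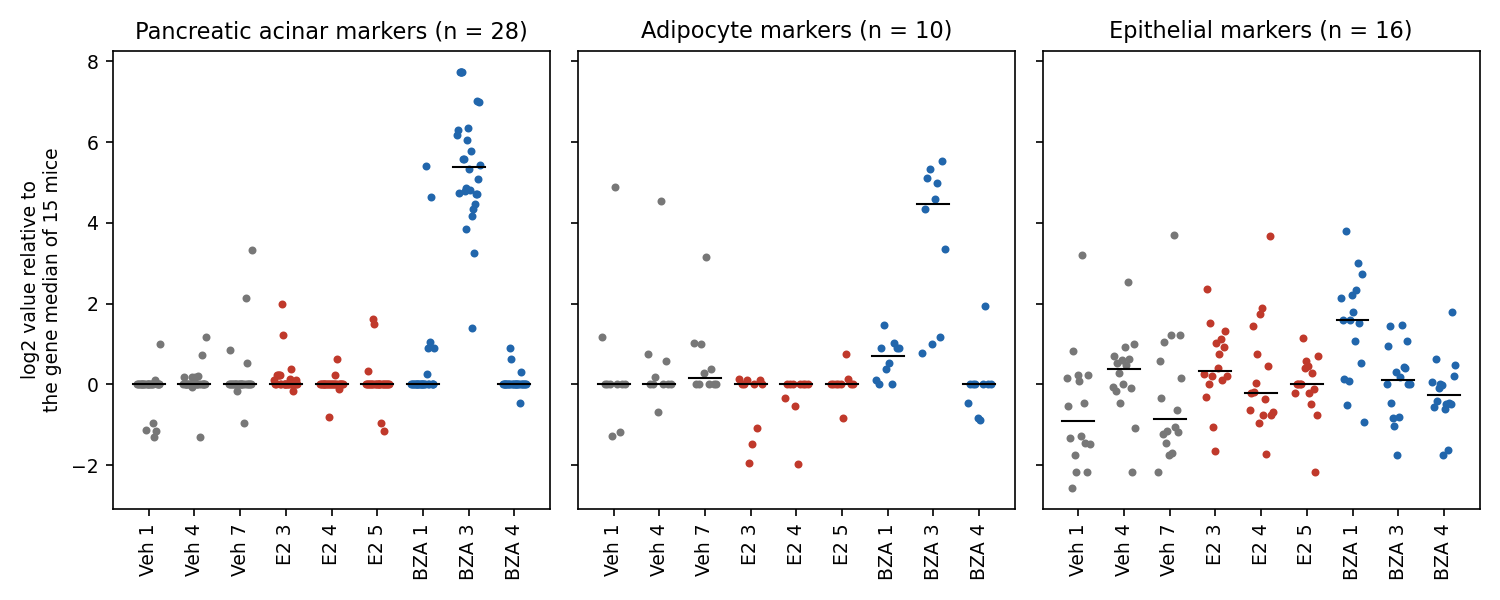
Levels of markers of other cell types in the 9 Veh, E2 and BZA mice. Each point is a marker gene (log2, relative to its median over 15 mice) and each line the median of the markers in a mouse; in BZA mouse 3 the acinar and adipocyte markers stand far above those of the other mice, and in BZA mouse 1 the epithelial markers are raised.

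Between E2 and BZA, 7 genes passed an FDR under 0.05 and a fold change above 2, all of them higher in E2 (0.275% of the genes tested), and 0 were higher in BZA (0%). FDR here is the Benjamini-Hochberg adjusted p of the limma model over all 2545 genes. Each of these genes had a treatment mean more than 2-fold from Veh in the same mice. The p-values were thus taken on genes selected by the same values, and the FDR does not carry its usual guarantee. Shares of all genes are likewise shares of this selection. The 7 genes were A1bg, Serpina12, Cyp3a44, Cml3, Gm11175, Fabp5 and Gm4477. When each of the 6 mice was left out in turn, A1bg and Serpina12 passed all 6 times, and the other genes missed the FDR at least 2 times. Of the 7, only A1bg and Gm11175 passed again with just the 6 mice in the model. With an ordinary linear model only A1bg and Serpina12 did. At an unadjusted p under 0.05 with a fold change above 2, 119 genes were higher in E2 (4.68%) and 163 in BZA (6.4%). That balance depended on the scaling and on the BZA mice. The share higher in E2 was 42.2% as deposited, 57% after quantile normalization and 63.2% with BZA mouse 4 as the only BZA mouse (172 genes against 100). The mean was higher in E2 in 1082 genes (42.5%) and in BZA in 1441 (56.6%), and the median difference over all genes, E2 minus BZA, was -0.14, against 0.09 with BZA mouse 4 alone.

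All 3 E2 mice lay above all 3 BZA mice with a fold change above 2 in 129 genes (5.07%), and below them in 142 genes (5.58%). Among the 129, E2 alone was apart from the Veh mice in 44, BZA alone in 30, both on opposite sides in 4, both on the same side in 1 and neither in 50. Among the 142, the corresponding counts were 36, 47, 1, 7 and 51. Of the 163 genes higher in BZA at the unadjusted p, 106 did not overlap between groups, and in 43 BZA mouse 4 was within or below the range of the E2 mice. Of the 119 higher in E2, 101 did not overlap and BZA mouse 4 was within or above the E2 range in 10. Against Veh, 5 genes passed in E2 (0.196%) and 0 in BZA (0%) in limma. At the unadjusted p and a fold change above 2 there were 417 of the 2545 genes in BZA. The same count for E2 was not made, so the 417 does not compare the treatments. With its own calls, the study reported similar numbers of regulated genes across treatments.

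As whole profiles, the E2 and BZA mice were apart by a root mean square log2 difference of 1.45 over all genes, the mean of their pairs, against 1.33 for pairs within a group. The gap of 0.12 had an exact permutation p of 0.1 (10 splits of the 6 mice), the smallest this design can give. Pairs of E2 mice were 1.19 apart on average and pairs of BZA mice 1.48, so the BZA mice differed from each other by as much as they differed from the E2 mice. Leaving out each E2 mouse in turn gave a gap of 0.045 to 0.052 (exact permutation p 0.3), and leaving out each BZA mouse in turn gave 0.128 to 0.23 (exact permutation p 0.1).

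**Figure D2:**
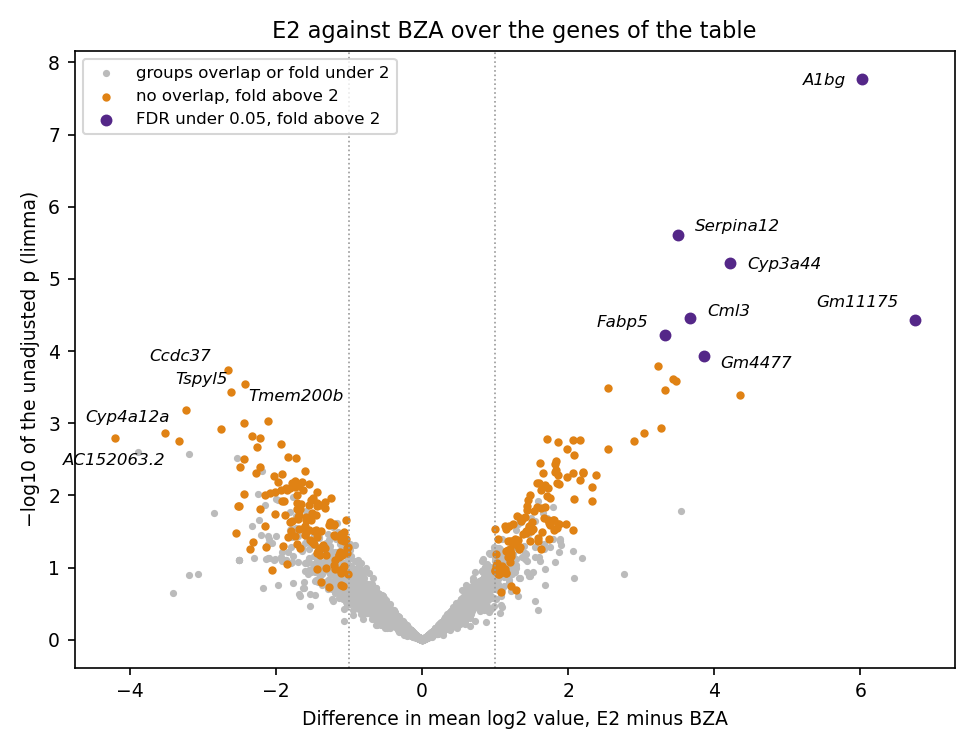
Difference in mean log2 value (E2 minus BZA, x axis) against the −log10 of the unadjusted limma p (y axis), 1 point per gene. The 7 genes past both thresholds lie at the upper right, with A1bg uppermost at a difference of 6.03, and no gene higher in BZA passed; 1 gene was not plotted.

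A1bg (alpha-1-B glycoprotein, a secreted plasma protein that is female-predominant in mouse liver) had the smallest p. Its level was 4.03, 4.59 and 4.91 in E2 mice 3, 4 and 5, and -2.06, -1.42 and -1.08 in BZA mice 1, 3 and 4. The Veh mice were at 1.48, -0.05 and 0.73. The 3 groups did not overlap, with the E2 mice above and the BZA mice below every Veh mouse. The difference between E2 and BZA was 6.03 ± 0.60 (log2, SE, n = 3 per group; limma FDR 4.29e-05). Against Veh, E2 was higher by 3.79 (FDR 0.00754), whereas the BZA value of -2.24 did not pass (FDR 0.181). Against BZA mouse 4 alone the E2 mean was 5.59 higher. A1bg lies at chr15:60896859-60923012 (GRCm38, minus strand).

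Cyp3a44, a cytochrome P450 that is also female-predominant in liver, was at 2.72, 3.76 and 4.62 in the E2 mice. It was at -0.16, -1.46 and 0.05 in the BZA mice and at -1.86, -1.75 and 0.00 in the Veh mice. The E2 mice were thus above all others, and the BZA mice overlapped the Veh mice. E2 exceeded BZA by 4.22 ± 0.65 (FDR 0.00514) and Veh by 4.91 (FDR 0.00231), and BZA minus Veh was 0.68 (FDR 0.503). The call was lost without E2 mouse 5 (limma FDR 0.0641) and without BZA mouse 3 (FDR 0.1), with differences of 3.77 and 3.75. It was also lost with only the 6 mice in the model (limma FDR 0.2) and with an ordinary linear model (FDR 0.0578). The gene is at chr5:145773983-145805874 (minus strand). Its transcript is 95.0% identical to that of Cyp3a41a, so reads could be split between them. Cyp3a41a also had all E2 mice (0.64, 1.94, 2.04) above all BZA mice (-0.39, -1.21, 0.00), with a difference of 2.08 that did not pass (FDR 0.176).

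Serpina12 encodes vaspin, a serine protease inhibitor described as an adipokine. Its level was 3.00, 2.07 and 1.51 in the E2 mice, -1.09, -1.72 and -1.12 in the BZA mice, and -0.99, 0.44 and -0.21 in the Veh mice. All BZA mice were below all Veh mice, and all E2 mice above them. E2 exceeded BZA by 3.51 ± 0.50 (FDR 0.00316). Neither group passed against Veh, at 2.45 for E2 (FDR 0.0593) and -1.06 for BZA (FDR 0.303). The call was lost with only the 6 mice in the model (limma FDR 0.131) and against BZA mouse 4 alone (FDR 0.1). The gene is at chr12:104028769-104044443 (minus strand).

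The promoters of these genes are shown because these genes had the smallest FDR and because estrogen receptors and STAT5 bind known short motifs. Each run is the RefSeq sequence (GRCm38.p6) from 250 bases before to 50 after the annotated start, 5′ to 3′ on the strand of the gene. Capitals mark matches, on either strand, to the core of the estrogen response element (GGTCA, or TGACC on the opposite strand) and to the STAT5 motif (TTCNNNGAA).
A1bg, chr15:60921221-60921520, minus strand: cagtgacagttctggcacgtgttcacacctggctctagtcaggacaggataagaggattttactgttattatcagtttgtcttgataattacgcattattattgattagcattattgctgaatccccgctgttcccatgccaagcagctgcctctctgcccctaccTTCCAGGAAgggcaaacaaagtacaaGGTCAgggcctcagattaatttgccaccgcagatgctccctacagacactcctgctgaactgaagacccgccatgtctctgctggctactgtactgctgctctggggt
Cyp3a44, chr5:145805825-145806124, minus strand: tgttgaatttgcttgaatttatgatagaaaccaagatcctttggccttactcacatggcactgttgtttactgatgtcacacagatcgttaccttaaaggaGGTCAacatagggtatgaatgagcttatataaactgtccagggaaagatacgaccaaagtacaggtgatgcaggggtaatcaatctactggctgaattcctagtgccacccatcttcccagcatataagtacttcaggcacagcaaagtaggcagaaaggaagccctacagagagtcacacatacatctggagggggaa
Serpina12, chr12:104044394-104044693, minus strand: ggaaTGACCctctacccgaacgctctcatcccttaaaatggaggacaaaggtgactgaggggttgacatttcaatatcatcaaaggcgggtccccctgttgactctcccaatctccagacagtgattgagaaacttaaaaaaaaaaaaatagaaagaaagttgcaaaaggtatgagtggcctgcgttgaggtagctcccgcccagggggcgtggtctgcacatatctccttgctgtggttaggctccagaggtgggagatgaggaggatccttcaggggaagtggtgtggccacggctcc

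The A1bg window held a core motif at -58 from the start and a STAT5 motif, TTCCAGGAA, at -84. That start is the RefSeq one, which lies inside the gene coordinates given above and not at their end. The Cyp3a44 window held a core motif at -149, and the Serpina12 window held it on the opposite strand at -246. The core motif occurred in 40.5% and a STAT5 motif in 8.3% of 32851 promoters of the same length. The full palindrome, GGTCANNNTGACC, occurred in 0.07% of them. Promoter sequence was at hand for 11 of the 25 genes named by call or rank. Of 7 such genes higher in E2, 4 held the core motif, 1 a STAT5 motif and 0 the palindrome. Of 4 higher in BZA, 2 held the core motif and 0 either of the other motifs. These matches are descriptions of the sequence and not binding sites.

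Cml3 and Gm4477 belong to the camello-like family of N-acetyltransferase genes. Cml3 was at 1.77, 1.90 and 2.02 in the E2 mice and at -0.94, -1.23 and -3.16 in the BZA mice, with the Veh mice at -0.03, 1.57 and 0.00. The E2 mice were within a narrow range above every Veh mouse, and the BZA mice below every Veh mouse. The difference was 3.67 ± 0.66 (FDR 0.0187), and the call was lost when any of the E2 mice or BZA mouse 3 was left out (limma FDR 0.0501 to 0.107). Gm4477, annotated as Nat8f7 at chr6:85706727-85713205, was at 2.27, 2.65 and 2.95 in E2 and at -1.22, -0.14 and -2.35 in BZA, a difference of 3.86 ± 0.77 (FDR 0.0421) that was lost when any of the 6 mice was left out (limma FDR 0.0933 to 0.174). The transcripts of these genes are 99.4% identical, so they may be a single signal counted for both.

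Fabp5, a fatty acid-binding protein, was at 3.32, 0.82 and 2.26 in the E2 mice and at -0.67, -2.01 and -0.91 in the BZA mice. The Veh mice, at -0.59, 0.00 and -0.76, were below all E2 mice, with BZA mouse 1 inside their range and BZA mice 3 and 4 under it. E2 exceeded BZA by 3.33 ± 0.63 (FDR 0.0257), a call that was lost without E2 mouse 3 or 5 and without BZA mouse 1 or 3 (limma FDR 0.0503 to 0.239). Against Veh the E2 value was 2.59 (FDR 0.107). The predicted gene Gm6166 is 98.3% identical to Fabp5 over its length and differed from it by at most 0.18 in the 6 mice, so reads of 1 of them may have been counted for the other. Fabp5 lies at chr3:10012548-10016607.

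Gm11175 is annotated as an antisense gene at chr8:70699162-70700080 that overlaps Jund, an AP-1 family transcription factor gene, on the opposite strand. It was at 0.38, 0.14 and -0.12 in the E2 mice and at the floor of -6.61 in each of the 3 BZA mice. The difference of 6.75 ± 1.21 (FDR 0.0187) is fitted against a group wholly at the floor and is not a measured size. The call was lost when any of the mice other than BZA mouse 4 was left out (limma FDR 0.0501 to 0.239). One other mouse, CE+BZA mouse 3, was also at the floor. In these 4 mice Jund was between 0.55 and 1.15, and in the other 11 between -1.54 and 0.17. In each of the 11 the value of Gm11175 was near and above that of Jund. Examples, with Gm11175 first, are Veh mouse 7 (-1.31 and -1.54) and CE mouse 6 (-0.43 and -0.64). Each value is set against the gene's own median, so this does not rank the levels of these genes. Jund itself was at -0.01, 0.00 and -0.45 in the E2 mice and 0.60, 0.55 and 0.81 in the BZA mice, which do not overlap, but its difference of -0.81 did not pass (FDR 0.551). The labels name a stranded library kit and the study's methods an mRNA kit with no mention of strand, and whether the counting used strand is not given in the sources used here, so reads from Gm11175 and Jund cannot be told apart. The part of this in the result was not tested.

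**Figure D3:**
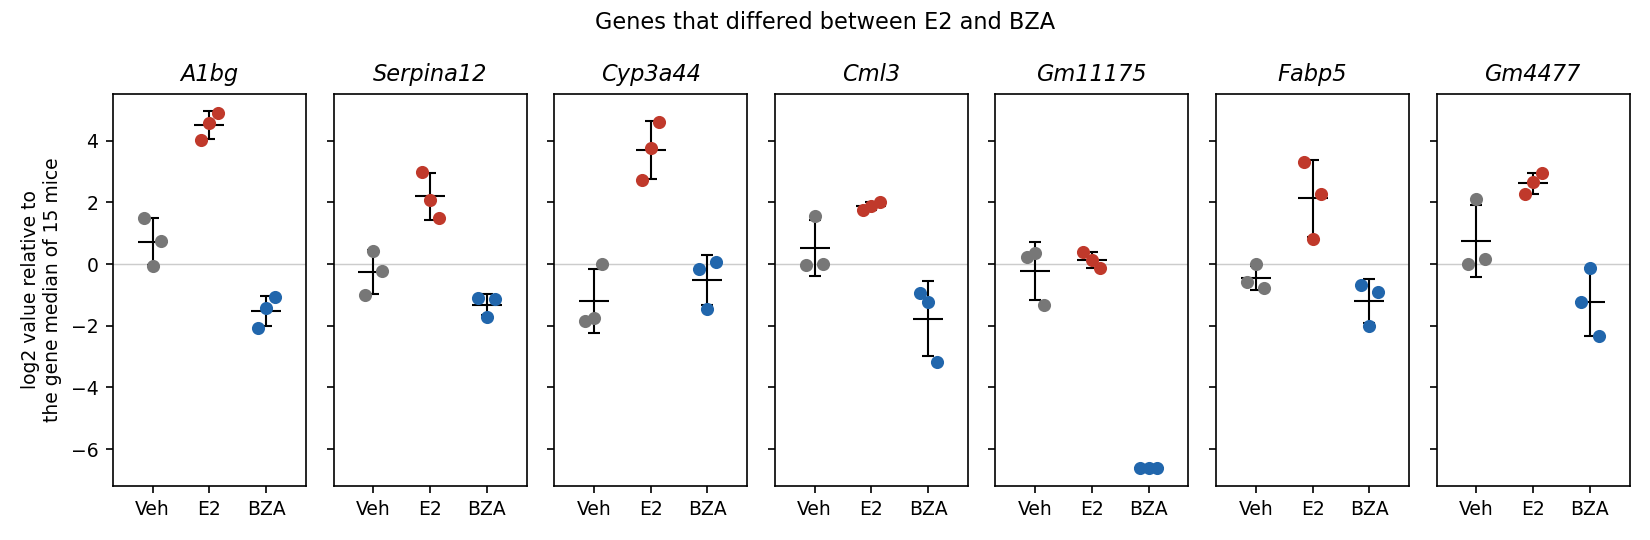
Levels of the 7 genes that passed between E2 and BZA (y axis, log2 relative to the gene median of 15 mice) in each Veh, E2 and BZA mouse, with the mean and SD of each group of 3. The E2 and BZA points do not overlap in any panel, and Gm11175 is at its floor in all 3 BZA mice.

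The genes that ranked next were also higher in all 3 E2 mice than in all 3 BZA mice but did not pass the FDR. Cyp2c69, a female-predominant cytochrome P450, was at 1.46, 1.66 and 1.57 in E2 and at -0.62, -1.0 and -1.32 in BZA, a difference of 2.54 ± 0.56 (FDR 0.0621). These E2 mice were all above the Veh mice (-0.65, -0.62, 0.39). Lmod3, an actin-nucleating leiomodin known from muscle, differed by 3.43 (FDR 0.0596), with the E2 mice at 2.13, 2.10 and 1.94 and BZA mouse 1 at 0.40 against -2.10 and -2.43 in the others. Chrna4, a nicotinic acetylcholine receptor subunit, differed by 3.48 (FDR 0.0596), again with BZA mouse 1 (-0.10) above the other BZA mice (-2.51 and -2.32). Sytl5, a synaptotagmin-like protein, differed by 3.04 and Dntt, the terminal deoxynucleotidyl transferase of lymphocyte precursors, by 1.71, both at an FDR of 0.138.

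In the direction of higher levels in BZA, Ccdc37, annotated as Cfap100 and known from cilia, came nearest to the threshold. It was at 1.72, 1.35 and 1.20 in the BZA mice and at -1.21, -1.15 and -1.34 in the E2 mice, with the Veh mice spread from -1.34 to 0.76. Both treated groups were thus tight and well apart, and all 3 BZA mice exceeded every Veh mouse. E2 mouse 5 and Veh mouse 1 were at the floor of -1.34, and the other E2 mice were near it. The narrow E2 range and the size of the difference may therefore be limited by the floor. The difference was -2.66 ± 0.56 (FDR 0.051). Tspyl5, of the nucleosome assembly protein family, was at -0.10, 0.36 and 0.98 in BZA and at -0.89, -2.57 and -2.57 in E2 (difference -2.43, FDR 0.0613), with 2 of the E2 mice at the floor. Tmem200b, a transmembrane protein gene, was at 1.64, 3.27 and 1.34 in BZA and at -0.72, 0.58 and -1.44 in E2 (difference -2.61, FDR 0.0632). Its BZA mice were above all Veh mice (-0.51, -0.32, -1.03), whereas its E2 mice overlapped them.

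Cyp4a12a, a male-predominant fatty acid hydroxylase, was at 0.00, 1.73 and 1.27 in the BZA mice and at -2.50, -1.68 and -2.50 in the E2 mice. The Veh mice ranged from -0.19 to 3.17, so the BZA mice overlapped the Veh mice and the E2 mice lay below both. The difference was -3.23 ± 0.77 (FDR 0.097), with 2 of the E2 mice at the floor. Cyp4a12b, whose transcript is 98.2% identical, was at its floor of -0.95 in all 3 E2 mice and at 0.02, 1.42 and 1.34 in the BZA mice. Clec3b, which encodes tetranectin, a plasminogen-binding plasma protein, was at 2.60, 3.16 and 2.10 in the BZA mice and at -0.19, 0.00 and -0.19 in the E2 mice. All its BZA mice were above the Veh mice, whose highest was 0.80, and the difference from E2 of -2.75 did not pass (FDR 0.138).

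The other genes of this rank were Nfe2l3, a cap'n'collar transcription factor gene (difference -2.11), Mgat3, which adds the bisecting N-acetylglucosamine to glycoproteins (-2.33), the small nucleolar RNA Snord91a (-1.93), and Tmem28 (-3.51), Xlr4a (-3.33), AC123644.1 (-2.44) and AC152063.2 (-4.21). Their FDR values were between 0.13 and 0.144. Part of the difference in AC152063.2 came from BZA mouse 3, which was at 5.70 while the other BZA mice were at 0.78 and 1.03. Tmem28 and Xlr4a were lowest in BZA mouse 1 (0.00 and -0.06) and above 2 in the other BZA mice. Nfe2l3 was at 1.06, 0.56 and -0.11 in BZA and at -1.97, -1.84 and -1.0 in E2.

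**Figure D4:**
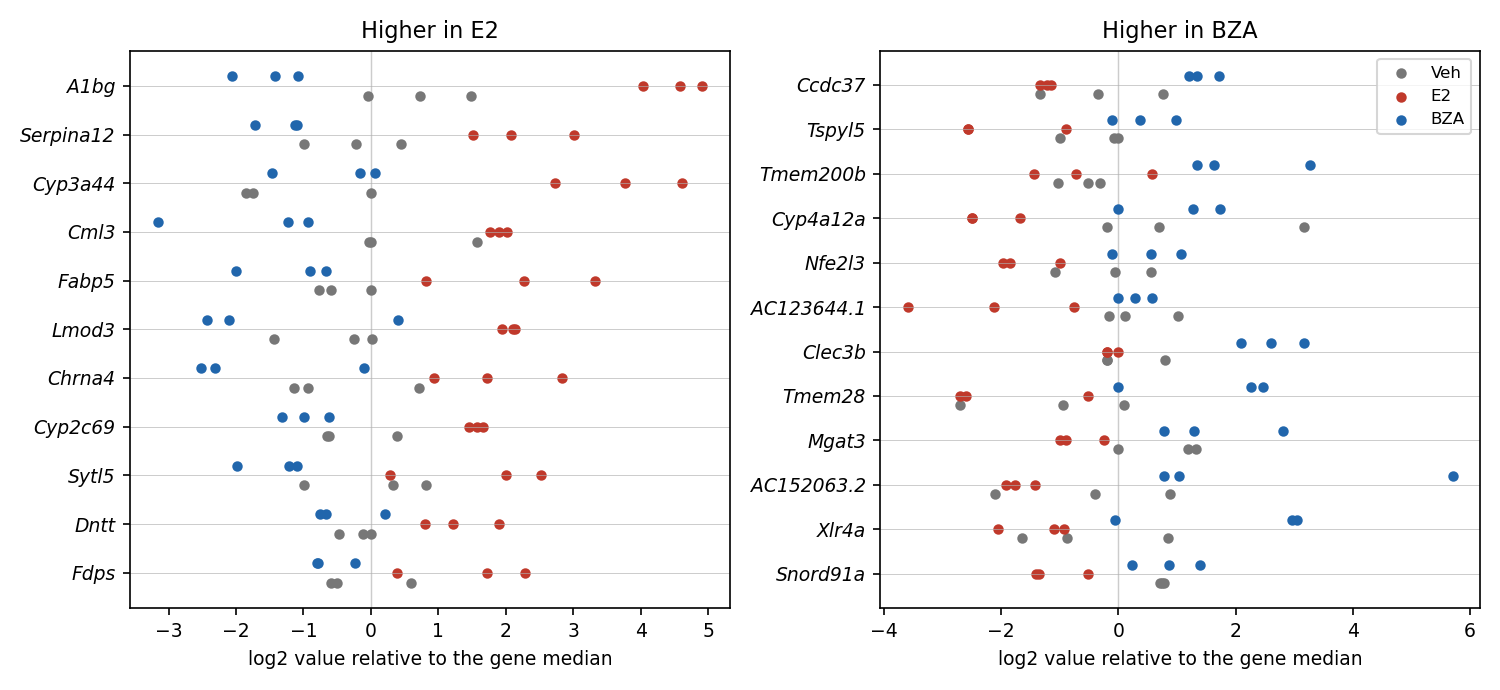
Levels in each mouse (x axis, log2 relative to the gene median) for the named genes with the smallest p in each direction whose E2 and BZA mice do not overlap. In the left panel the E2 points lie right of the BZA points for every gene, and in the right panel left of them; the Veh points vary in position from gene to gene.

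Of 36 female-predominant liver genes, 21 were in the table, and 2 of them passed, A1bg and Cyp3a44, both higher in E2. The mean was higher in E2 in 15 and in BZA in 6, and the E2 and BZA mice did not overlap in 7 and 1 of them, where 6.92% and 7.9% of all genes did so. The median difference was 1.12, against -0.14 over all genes, and 1.15 with BZA mouse 4 alone. Besides those named, the E2 mice were above the BZA mice in Cyp2a4 (1.98, FDR 0.226), a steroid hydroxylase, Hamp2 (1.63, FDR 0.453), a hepcidin gene, and Cyp2g1 (1.36, FDR 0.358). The exception was Cyp2b13, at -0.07, -1.70 and -2.89 in the E2 mice and 0.11, 0.76 and 0.03 in the BZA mice (-1.85, FDR 0.257), with the Veh mice between 0.99 and 1.30. Cux2, a female-predominant transcriptional regulator of liver sex differences, differed by 1.51 (FDR 0.517), with BZA mouse 1 at 0.17 inside the E2 range of 0.03 to 0.59. The sulfotransferase Sult2a5 was at -0.49 (FDR 0.693).

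Of 41 male-predominant genes, 20 were in the table, and 0 passed in limma in either direction (at the unadjusted p, 0 were higher in E2 and 9 in BZA with a fold change above 2, against 4.68% and 6.4% of all genes). The mean was higher in BZA in 13 and in E2 in 7, where 56.6% and 42.5% of all genes were so. The groups did not overlap in 6 with BZA higher and 1 with E2 higher, against 7.9% and 6.92% of all genes. The median difference was -0.58, and -1.28 with BZA mouse 4 alone. Spink3, a serine protease inhibitor gene of liver and exocrine pancreas, was at 2.53, 2.60 and 1.80 in the BZA mice and near the floor in the E2 mice, at -0.07, -0.17 and -0.17 (-2.44, FDR 0.178). It was also at 2.73 in Veh mouse 7. Acinar markers were raised in BZA mouse 3 and, for Ctrb1 and Reg1, in BZA mouse 1, and their part in the Spink3 value was not tested. The other non-overlapping genes were Cyp4a12a, Cyp4a12b, Nox4 (-1.33), an NADPH oxidase, Susd4 (-1.54), a complement regulator, and Alas2 (-1.11), the erythroid heme synthesis enzyme, which is also an erythroid marker. All 10 erythroid markers in the table had a higher mean in BZA, with a median difference of -0.60, and their part in the Alas2 value was not tested. Mup1, a major urinary protein gene, varied within the BZA group. It was at 2.24 in BZA mouse 4 but at -1.33 and -0.81 in mice 1 and 3, so its difference was 0.04 over all mice and -2.17 against BZA mouse 4 alone. Sult5a1 was the male-predominant gene whose E2 mice (0.06, 0.48, 0.89) were above the BZA mice (-1.30, 0.00, 0.02), by 0.91 (FDR 0.531). Cib3, with the largest difference in that direction (1.32, FDR 0.673), owed it to E2 mouse 3 at 4.04, and without that mouse the difference was -0.21.

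**Figure D5:**
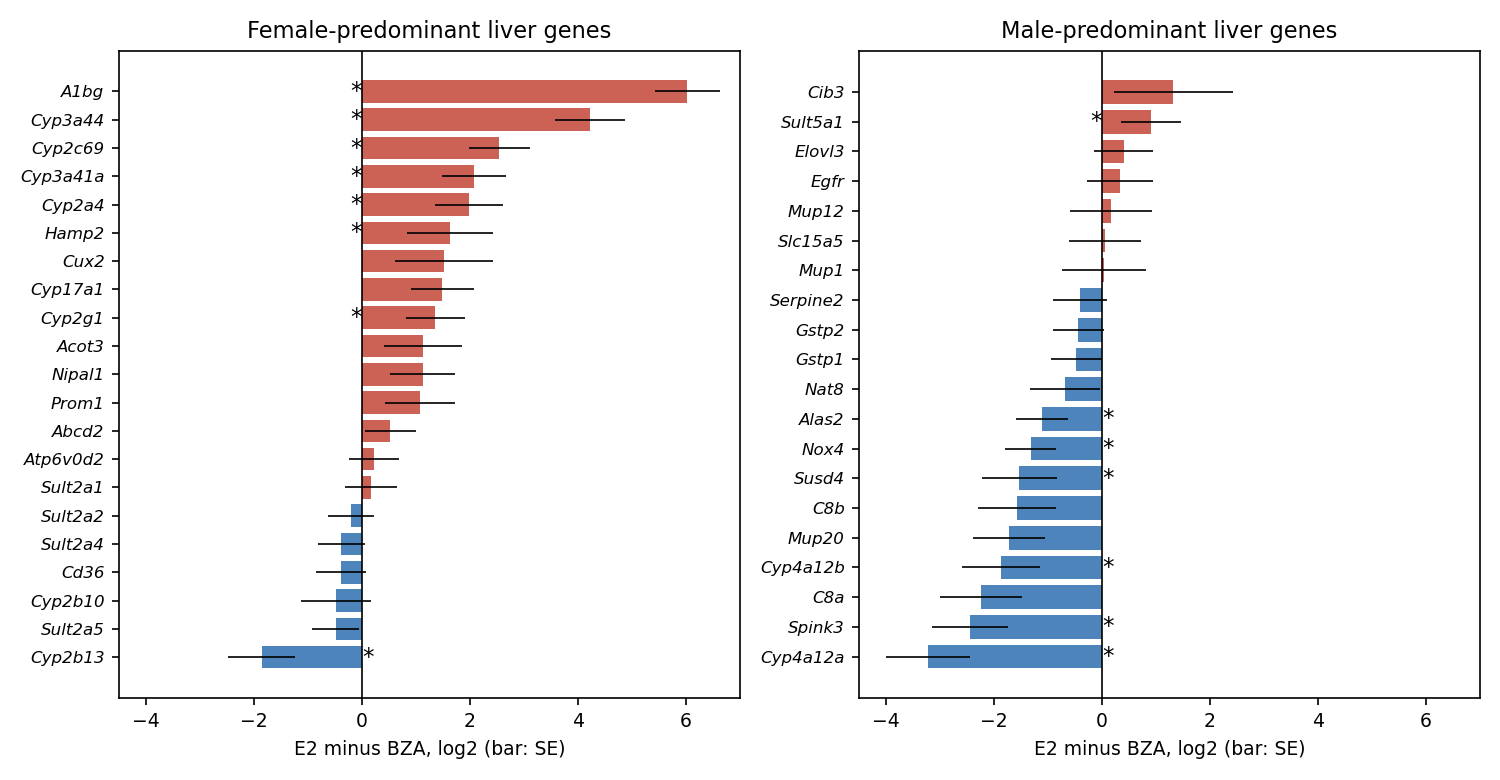
Difference E2 minus BZA (x axis, log2, bars with SE from limma) for the 21 female-predominant and 20 male-predominant liver genes in the table. An asterisk marks genes whose E2 and BZA mice do not overlap, which are 8 of the female-predominant genes, 7 of them higher in E2, and 7 of the male-predominant genes, 6 of them higher in BZA.

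Among genes of estrogen receptor and growth hormone signaling, 10 of 31 were in the table and 0 passed in limma (at the unadjusted p with a fold change above 2, 1 in each direction, against 4.68% of all genes for E2 and 6.4% for BZA). Socs2, a STAT5 target that dampens growth hormone signaling, was at 1.46, 0.51 and 0.86 in the E2 mice and at 0.34, -1.59 and -1.52 in the BZA mice. These did not overlap, and the difference of 1.87 did not pass (FDR 0.219). Greb1, a target of estrogen receptor alpha in breast and uterus, was at 0.89, 2.09 and 0.97 in the BZA mice and at 0.00, 0.19 and 0.00 in the E2 mice, with 2 E2 mice and 11 of the 15 mice at the floor. The groups did not overlap, with a difference of -1.25 (FDR 0.286), and its highest value was in BZA mouse 3. Socs3 differed by -0.84 (FDR 0.618) and Ltf, lactoferrin, an estrogen-responsive gene of the uterus, by 0.66 (FDR 0.896), with BZA mouse 1 at 2.22 and BZA mice 3 and 4 at the floor. The median over the 10 genes was -0.40.

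Of the 30 cytochrome P450 genes in the table, 1 passed (Cyp3a44), against 0.275% of all genes. The E2 mice were above the BZA mice in 6 and below them in 4, against 6.92% and 7.9% of all genes, and the median difference was 0.21. Those below were Cyp4a12a, Cyp4a12b, Cyp2b13 and Cyp2b23 (-0.97, FDR 0.533). Cyp2c65 was at 3.93 in BZA mouse 1 and at or near its floor in the other 5 mice, and is a gene known from the intestine. The 19 conjugation enzymes had 0 genes past the FDR in limma, with 3 higher in E2 and 1 higher in BZA at the unadjusted p and a fold change above 2, where 4.68% and 6.4% of all genes were so. The glucuronosyltransferases Ugt1a2 (2.32, FDR 0.251), Ugt1a5 (2.21, FDR 0.215) and Ugt2b37 (1.99, FDR 0.159) were higher in all E2 mice. Ugt1a2 and Ugt1a5 belong to a single locus with shared exons, so their reads may be shared. The glutathione transferase Gsta1 was at 0.96, 0.62 and -0.17 in the BZA mice and at -1.06, -1.05 and -1.29 in the E2 mice (-1.60, FDR 0.215). Its Veh mice were higher than both, from 1.33 to 2.53, and E2 passed against Veh at -3.08 (FDR 0.00754) whereas BZA, at -1.47, did not (FDR 0.236). Gsta2 had the same order of means with a difference of -0.96 (FDR 0.515).

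Among 18 lipid synthesis, uptake and storage genes in the table (of 46), 0 passed in limma, and at the unadjusted p with a fold change above 2 there were 2 higher in E2 and 4 higher in BZA, where 4.68% and 6.4% of all genes were so. All E2 mice exceeded all BZA mice in 5 genes and were below them in 1, against 6.92% and 7.9% of all genes. The 5 were Pnpla3, a lipase gene driven by the lipogenic program (2.38, FDR 0.219), Acly (1.10, FDR 0.511), ATP citrate lyase, Elovl6 (0.95, FDR 0.513), a fatty acid elongase, Fasn (0.77, FDR 0.68), fatty acid synthase, and the phospholipase gene Pla2g4f (1.83, FDR 0.19). Pnpla3 was at 1.02, 0.76 and 1.38 in the E2 mice and at 0.00, -2.45 and -1.53 in the BZA mice. In Acly, Elovl6 and Fasn the lowest of the 6 mice was BZA mouse 4, at -0.72, -1.36 and -0.82. Mogat2, a monoacylglycerol acyltransferase, went the other way, at 0.38, 0.76 and 1.79 in BZA and 0.04, -0.98 and -2.17 in E2 (-2.02, FDR 0.339). Plin1 and Cidea, also in the list, are adipocyte genes that were at the floor in all E2 mice and in BZA mouse 4, so their differences of -2.00 and -1.41 came from BZA mice 1 and 3. Pparg, the adipogenic nuclear receptor, was at -0.22, -0.55 and -0.58 in the E2 mice and 0.00, 0.17 and -0.57 in the BZA mice. Its difference was -0.32 (FDR 0.824), and 0.12 with BZA mouse 4 alone. The Veh mice were higher than either group, from 0.61 to 1.18.

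Cfd, which encodes the complement factor adipsin of adipocytes, was at 4.89, 4.55 and 3.15 in the Veh mice and at -1.48, -1.97 and -0.83 in the E2 mice. In the BZA mice it was at 0.53, 4.59 and -0.88, so that BZA mouse 3 was within the Veh range and BZA mouse 4 within the E2 range. The difference between E2 and BZA was -2.84 (FDR 0.336), and against BZA mouse 4 alone it was -0.55. E2 minus Veh was -5.62 (FDR 0.0388). BZA mouse 3 is the liver with the high adipocyte markers, whose summed level was 7.73 there and 3.06 to 3.37 in the E2 mice, and their part in the BZA value was not tested.

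The 5 cholesterol and bile acid genes in the table (of 37) had 0 past the FDR in limma and 2 at the unadjusted p with a fold change above 2, both higher in E2, as were 4.68% of all genes. Fdps, farnesyl diphosphate synthase of the mevalonate pathway, was at 2.29, 0.38 and 1.72 in the E2 mice and at -0.24, -0.80 and -0.78 in the BZA mice (2.07, FDR 0.138). Its reads may be shared with the 98.9% identical predicted gene Gm3571. Mvd, mevalonate diphosphate decarboxylase of the same pathway, was at 1.62, 1.08 and 1.16 in E2 and at -0.09, -0.35 and -0.44 in BZA (1.58, FDR 0.309). Nsdhl, a later sterol synthesis enzyme, differed by 0.83 with overlap (FDR 0.517). For Cyp7a1, the rate-limiting enzyme of bile acid synthesis, the difference was -0.35 (FDR 0.845), and it was 0.16 with BZA mouse 4 alone.

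Of the 15 PPAR-alpha and fatty acid oxidation genes in the table (of 37), 0 passed in limma, and 1 was higher in E2 at the unadjusted p with a fold change above 2, as were 4.68% of all genes. The mean was higher in E2 in 12 of the 15 and in 42.5% of all genes. The gene at the unadjusted p was Fgf21, a hepatokine induced by fasting, at 1.37, 0.04 and 0.14 in the E2 mice and -0.66, -1.19 and -2.82 in the BZA mice (2.08, FDR 0.286). The peroxisomal oxidase Hao2 (1.68, FDR 0.593) and the acyl-CoA thioesterase Acot3 (1.13, FDR 0.546) were lowest in BZA mouse 4, at -2.73 and -2.02. The median was 0.30 over all BZA mice and 0.90 with BZA mouse 4 alone. Il4i1 and Cyp4a14 were at the low end of the list, at -0.63 and -0.20.

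The acute-phase, cytokine and chemokine genes (18 of 49 in the table) had 0 past the FDR in limma and 0 at the unadjusted p with a fold change above 2. Of all genes, 0.275% passed, and at the unadjusted p 4.68% were higher in E2 and 6.4% in BZA. The largest differences of the 18 genes came from a single liver. Saa1, serum amyloid A, was at 4.27 in BZA mouse 4 but at 0.00 and 0.16 in BZA mice 1 and 3, and between -0.94 and 0.99 in the E2 mice. Among the 6 mice, Saa2 (4.54), Lcn2 (3.67) and Orm2 (2.60) were likewise highest in BZA mouse 4. Mice of other groups were higher still. CE+BZA mouse 2 and CE mouse 3 were at 5.30 and 4.84 in Saa1 and at 4.39 and 4.31 in Lcn2. BZA mouse 4 thus stood apart from the other BZA mice in these genes, and the difference between E2 and BZA was -1.53 in Saa1 (FDR 0.736) and -1.67 in Lcn2 (FDR 0.67). Cxcl1 (-1.31, FDR 0.469) and Il1r1 (-1.13, FDR 0.462) were higher in all 3 BZA mice than in all E2 mice, as were 7.9% of all genes. Ccl2, a monocyte chemokine, was lower in all 3 BZA mice, as were 6.92% of all genes. Its difference was 0.94 (FDR 0.632), and Cxcl13 overlapped at 0.51. Of 11 myeloid markers 3 were higher in all BZA mice, against 7.9% of all genes. These were Trem2 (-1.21, FDR 0.374) and Gpnmb (-1.69, FDR 0.358), both of lipid-laden macrophages, and Elane (-1.85, FDR 0.51), neutrophil elastase, in which all E2 mice were at or near the floor. Over the 11 markers the mean was higher in BZA in 8 and in E2 in 3, against 56.6% and 42.5% of all genes. Ngp (0.87) and Camp (0.59) were among those higher in E2, and the median difference of the 11 was -0.23.

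Of 8 coagulation and complement genes in the table (of 50), 0 passed in limma, with 1 higher in E2 and 3 in BZA at the unadjusted p with a fold change above 2, where 4.68% and 6.4% of all genes were so. C8a and C8b, which encode chains of complement component 8 and are male-predominant, were at 1.88 and 1.50 in BZA mouse 3 and 2.17 and 1.23 in BZA mouse 4. In BZA mouse 1 they were at -0.51 and -1.22, inside the E2 range, and the differences were -2.24 (FDR 0.27) and -1.58 (FDR 0.425). F11, coagulation factor XI, was higher in all E2 mice (0.21, 0.64, 0.50) than in all BZA mice (-0.97, -0.17, -0.52), by 1.0 (FDR 0.385). Plaur, the urokinase receptor, was at 0.42 (FDR 0.862).

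All 11 immediate early response genes in the table (of 31) had a higher mean in BZA, with a median difference of -0.81 over all BZA mice and -0.69 with BZA mouse 4 alone. Of all genes, 56.6% had a higher mean in BZA. None of the 11 passed in limma, and 3 were higher in BZA at the unadjusted p with a fold change above 2, as were 6.4% of all genes. Fos, an AP-1 subunit that is induced within minutes of stress or handling, was at 1.62, 1.0 and 0.42 in the BZA mice and at -0.51, -2.45 and -0.05 in the E2 mice (-2.02, FDR 0.266). Fos and Jund were the members without overlap, both higher in BZA, as were 7.9% of all genes. Jund, at -0.81, was also the median member. Its reads cannot be told apart from those of Gm11175, and the part of this in its value was not tested. Gdf15, a stress-induced cytokine, differed by -2.06 (FDR 0.431), with BZA mouse 3 at 2.87 and E2 mouse 3 at -2.37. Zfp36 (-0.09) and Gadd45g (-0.23) were nearest to 0.

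None of the 8 clock genes in the table (of 21) passed in limma, against 0.275% of all genes. At the unadjusted p with a fold change above 2 there were 0, where 4.68% of all genes were higher in E2 and 6.4% in BZA. The groups did not overlap in 0, against 6.92% of all genes with E2 higher and 7.9% with BZA higher. The differences of the clock genes ran from -0.82 in Npas2 and Usp2 to 0.16 in Nr1d1 and 0.57 in Dbp, a circadian output factor. Of 13 extracellular matrix genes (of 47), 0 passed in limma and 0 reached the unadjusted p with a fold change above 2, against the same shares of all genes. Fbln1, fibulin 1, was higher in all BZA mice (-1.33, FDR 0.447), as were 7.9% of all genes. Mmp12, macrophage elastase, was higher in all E2 mice (1.08, FDR 0.645), as were 6.92% of all genes. Bmp7 was at -0.89 and Postn, periostin, at 0.42, both with overlap.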

How the data were processed

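Liver RNA of 15 mice was sequenced. After trimming and TopHat alignment (the labels list mm10, the same as GRCm38, and hg19), the authors quantified genes with StrandNGS, normalized them with DESeq and deposited log2 values relative to the gene median. The submitters' notes also list CASAVA 1.8.2. Depth is not in the table. No pseudocount was added, and no gene was filtered beyond the selection already present in the deposited values. In R 4.3.3, limma 3.58.1 fitted the means of the 5 groups over the 15 mice, the contrast was E2 minus BZA, and p-values were adjusted over 2545 genes. A gene passed at an FDR under 0.05 and a fold change above 2. The test was checked on simulated data. Doses are those of the study's methods. That the samples are separate mice follows from the study, and p-values measure the spread between them.

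The members and gene lists were chosen with earlier results of these data known. Genes were named if they passed, if they were among the 12 per direction with the smallest p, no overlap and a fold change above 2, if the study names them from liver RNA (A1bg, Cfd, Pparg), or if they were among the 2 largest or 2 smallest differences of a list. Predicted and repeated symbols were named only where they passed. Other members of the lists, markers, and the partners Jund, Gm6166 and Gm3571 were named after their values were seen. One gene that the rule selects is not reported here. Marker lists for lymphocytes (9 genes in the table, median difference -0.41), mesothelium (5, 0.25), endothelial and stellate cells (2, -0.20) and skeletal muscle (1, -0.03) were also measured. Transcript identity and positions came from GENCODE vM21, promoters from RefSeq. Alternatives were other scalings, filters and spread models, a replicate block, the 6 mice alone and leaving out mice. Plots were made with matplotlib 3.10.9 in Python 3.11.15.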

Additional observations from a re-analysis of the deposited data

Results flagged for a closer look

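Cyp3a44, Fabp5 and Serpina12, which passed between E2 and BZA, also stood out in mice outside these groups. Those mice entered the limma model through the shared estimate of the spread. With only the 6 mice in the model these genes did not pass (limma FDR 0.2, 0.337 and 0.131). In the 3 mice given CE, every mouse was above every Veh mouse. The mean of the CE mice exceeded that of the Veh mice by 2.60 in Cyp3a44, by 1.37 in Fabp5 and by 1.35 in Serpina12, on the log2 scale. The CE and Veh mice overlapped in the other 4 of the 7 genes, with means of 0.76 and 0.72 in A1bg, -0.77 and 0.51 in Cml3, -0.55 and 0.75 in Gm4477, and -0.068 and -0.23 in Gm11175. These values are descriptions and were not tested here. How many of all genes had every CE mouse above every Veh mouse was not measured.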

How the results depend on the processing

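A1bg passed under every alternative tried except that with BZA mouse 4 as the only BZA mouse, where its FDR was 0.0729 (7.63e-06 to 0.0175 elsewhere). With that mouse alone, assumed to vary like the other groups, 0 genes were higher in E2 and 0 in BZA at the FDR in limma, and 172 and 100 at the unadjusted p. The number of genes higher in E2 was 13 after quantile normalization, 12 with under 2 mice at the floor, 13 above the lower quartile of the range, 119 at the unadjusted p, 3 with only the 6 mice, 11 with a mean-variance trend and 2 with an ordinary linear model. The number higher in BZA was 1 after quantile normalization, after centring, with under 2 mice at the floor and with the trend, and 163 at the unadjusted p. Leaving out 1 mouse at a time gave 2 to 9 genes higher in E2 and 0 to 9 higher in BZA. Without BZA mouse 3 or without E2 mouse 5 there were 2 genes, both among the 7. Without E2 mouse 3 there were 3 higher in E2 and 1 in BZA, and without E2 mouse 4 there were 6 and 2. Without BZA mouse 1 there were 9 and 1, and without BZA mouse 4 there were 8 and 9, which included Reg1 and Ctrb1. The cause of these shifts was not tested.

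A fit with the replicate number as a block left 1 gene higher in E2 (A1bg). Same-numbered mice are different animals, E2 and BZA share only 2 numbers, and their deviations correlated at -0.020 and -0.041, so the numbers do not pair the mice. Under the block, Cyp4a14 was at 0.043 and Nr1d1 at -0.68. With BZA mouse 4 alone the sign also turned in Cyp7a1 (0.16), Pparg (0.12), Zfp36 (0.18), Dbp (-0.072), Nr1d1 (-1.18) and Gadd45g (0.37). Leaving out 1 mouse turned the sign of Postn (-0.11 to 0.98), Cyp7a1 (-0.68 to 0.027), Cyp4a14 (-0.56 to 0.059), Cxcl13 (-0.049 to 0.95), Plaur (-0.60 to 1.04), Zfp36 (-0.24 to 0.015), Cib3 (-0.21 to 2.35), Ltf (-0.11 to 1.98) and Nr1d1 (-0.57 to 0.86). None of these genes passed. The gap between the E2 and BZA profiles was 0.12 to 0.16 under the other measures and scalings.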

Other observations

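The mice given CE and those given CE+BZA were also measured for the 7 genes. They share no animal with the E2 and BZA groups but entered the model through the shared spread. CE mice had the higher mean in 5 of the 7 and CE+BZA mice in the other 2, Cml3 and Gm4477. In A1bg, Cyp3a44 and Serpina12 every CE mouse was above every CE+BZA mouse, with differences of 2.17, 2.10 and 1.23. Socs2 had CE mice above CE+BZA mice by 2.84, also without overlap. Of the 12 genes ranked higher in BZA, CE+BZA mice had the higher mean in 7. Every CE+BZA mouse was above every CE mouse in Cyp4a12a (CE minus CE+BZA -3.11), Tmem200b (-2.60), Ccdc37 (-1.90) and AC152063.2 (-4.82), and the reverse held in AC123644.1 (2.41). These values were not tested. The share of all genes with such a pattern between CE and CE+BZA was not measured, so the counts cannot be set against it.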
